A study of Mus musculus with 26 samples.

Results

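The brush border hydrolases are enzymes anchored in the apical membrane of absorptive enterocytes, where they finish the digestion of sugars and peptides next to the transporters that take the products up. The 9 genes described here were chosen by name in the 3 deposited count tables, and all 9 were present among the 40481 genes of each of the 2 mouse tables. They are 4 disaccharidases (Lct, Sis, Mgam and Treh), 4 peptidases (Anpep, Dpp4, Enpep and Mme) and 1 phosphatase (Alpi). In the human table of 55093 genes, 8 of the 9 were found under the upper-case symbol. The remaining one, sucrase-isomaltase, is listed there as SI and was taken by its description.

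The data were RNA sequencing reads counted per gene in 26 libraries. Fgfr1op KO small intestinal spheroids and wild type (WT) spheroids, from 4 mice each, were taken at day 3 after 250 nM hydroxytamoxifen, which both genotypes received. Fgfr1op KO and WT crypt-enriched small intestine came from mice at days 6 and 9 after tamoxifen, 3 mice per genotype and day and so 6 libraries per genotype. Caco-2 cells, derived from a human colorectal tumour and widely used to study enterocytes, carried a doxycycline-inducible vector with 1 hairpin against Fgfr1op (shFgfr1op) or with a non-targeting hairpin (scramble), and 3 libraries of each were taken at day 3 after doxycycline. Fgfr1op encodes a centrosomal protein, and each comparison sets cells with the gene deleted or knocked down against their controls. The recombinase and its promoter, the exons deleted, and the age and strain of the mice are not given in the sources used here. The labels do not say whether the Caco-2 libraries are separate cultures; the p-values of that table measure only the spread between these libraries, which may be technical. Spheroids were grown in a conditioned medium rich in Wnt, R-spondin and Noggin, which holds epithelium in an undifferentiated state. The crypts were released with EDTA, and markers of enterocytes, stem cells, Paneth cells, goblet cells and immune cells were all detected in them.

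As background, enterocytes arise from crypt stem cells and build a brush border of microvilli as they move onto the villus. Lactase, sucrase-isomaltase and maltase-glucoamylase split disaccharides and the ends of starch chains, trehalase splits the sugar of fungi and insects, the aminopeptidases trim single residues from the start of peptides, dipeptidyl peptidase 4 removes a pair of residues at once, and intestinal alkaline phosphatase takes phosphate from lipids, nucleotides and bacterial lipopolysaccharide. Transcription of several of these genes in enterocytes is known to depend on HNF4A, CDX2 and GATA4.

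Mouse sequences upstream of the start site are shown for 4 members. Sis was called lower in KO crypts and in shFgfr1op cells. Lct and Mgam were called lower in shFgfr1op cells and not in KO crypts. Alpi was the one member called higher in shFgfr1op cells. Dpp4, with the same calls as Sis, and Anpep, with the same calls as Lct and Mgam, are not shown. The shFgfr1op cells are human, and no human upstream sequence was examined. Each sequence shown is the 250 bases before the RefSeq start on GRCm38.p6, in the gene's own direction. Capitals mark the letters of 3 short motifs searched on both strands: TTTATG of CDX sites, AGATAA of GATA sites and CAAAGT of HNF4 sites. Lct lies at chr1:128328319-128328568, Sis at chr3:72967864-72968113 and Alpi at chr1:87101607-87101856, all on the minus strand, and Mgam at chr6:40628581-40628830 on the plus strand.
Lct: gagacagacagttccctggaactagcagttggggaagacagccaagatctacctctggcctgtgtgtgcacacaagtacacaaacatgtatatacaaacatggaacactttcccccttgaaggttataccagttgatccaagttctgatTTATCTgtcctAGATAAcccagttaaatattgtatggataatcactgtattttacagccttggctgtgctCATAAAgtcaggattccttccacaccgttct
Sis: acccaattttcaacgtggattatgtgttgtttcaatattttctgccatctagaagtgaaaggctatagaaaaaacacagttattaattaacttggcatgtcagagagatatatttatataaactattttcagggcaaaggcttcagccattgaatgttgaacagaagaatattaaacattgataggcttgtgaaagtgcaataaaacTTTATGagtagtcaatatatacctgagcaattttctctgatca
Mgam: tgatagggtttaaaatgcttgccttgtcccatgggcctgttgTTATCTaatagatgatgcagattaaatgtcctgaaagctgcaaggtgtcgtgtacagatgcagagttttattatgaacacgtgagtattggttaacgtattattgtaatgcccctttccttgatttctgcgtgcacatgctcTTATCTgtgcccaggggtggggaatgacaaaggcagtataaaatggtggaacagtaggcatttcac
Alpi: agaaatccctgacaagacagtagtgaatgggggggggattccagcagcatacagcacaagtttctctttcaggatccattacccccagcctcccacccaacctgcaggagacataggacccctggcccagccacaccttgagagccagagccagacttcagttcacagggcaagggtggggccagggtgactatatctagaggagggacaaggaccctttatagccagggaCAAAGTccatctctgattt

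The CDX letters stood at -31 to -26 from the start in Lct, on the strand opposite to the gene, and at -43 to -38 in Sis, on its own strand. The GATA letters were found 2 times in Lct and 2 times in Mgam, and the HNF4 letters once in Alpi at -19 to -14. Across the 9 members the CDX letters were found in 2. The GATA letters were found in 3 (Lct, Mgam and Dpp4) and the HNF4 letters in 3 (Alpi, Treh and Mme). Mme had 3 windows, and its match was in window 2 only, where each other member had 1 window. Windows of Anpep and Enpep held none of these letters. Of 32851 mouse windows of the same length, 10.8% held the CDX letters, 9.99% the GATA letters and 12.6% the HNF4 letters. No match shared a base with another. These are matches of letters and say nothing of binding. The windows of 7 of the 9 members ran directly into the member's own GENCODE transcript.

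Total counts per library were 51459939 to 63981065 in KO spheroids and 44152608 to 67630241 in WT spheroids, 48068740 to 88869286 in KO crypts and 49536700 to 103352863 in WT crypts, and 37281821 to 43876634 in shFgfr1op and 37989227 to 50965004 in scramble Caco-2. Levels below are CPM (counts scaled to the size of the library), on TMM-scaled totals, and a gene is called where edgeR's quasi-likelihood test gave a Benjamini-Hochberg adjusted p below 0.05 over all genes tested in its table. Fgfr1op itself, counted over the whole gene and not over the deleted exons alone, had 17.4 ± 1.98 CPM in KO spheroids and 23.2 ± 1.12 CPM in WT spheroids (SD, n = 4 each; edgeR adjusted p = 0.117, no overlap). It had 21.1 ± 5.22 CPM in KO crypts and 32.9 ± 6.27 CPM in WT crypts (SD, n = 6 each; adjusted p = 0.0261 in edgeR, with overlap), and FGFR1OP had 6.82 ± 0.41 CPM in shFgfr1op cells against 15.7 ± 0.21 CPM in scramble cells (SD, n = 3 each; adjusted p = 1.65e-14 in edgeR).

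Column names of the crypt table give the genotype with a number and leave out the day. Days 6 and 9 therefore stand together in each genotype, and libraries are called here by that number. Each name also ends in a longer number, which the sources used here do not explain. That longer number is lower in KO libraries 1, 2 and 3 and WT libraries 1 and 2. It is higher in KO libraries 4, 5 and 6 and WT libraries 3, 4, 5 and 6. KO crypt libraries 4, 5 and 6 stood apart from the other 9. A principal component analysis used the 1000 most variable of the genes tested, and its first component held 73.17% of their variance. There KO libraries 1, 2 and 3 lay at -16.6 to 0.03 and the 6 WT libraries at -40.0 to -29.6. KO libraries 4, 5 and 6 lay at 73.7, 91.4 and 78.3. Whether these 3 libraries share a day cannot be read from the columns. Fgfr1op had 25.9, 24.1 and 21.8 CPM in them and 11.7, 24.2 and 18.7 CPM in KO libraries 1, 2 and 3. The crypt tests below are therefore given with and without them.

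RNA levels of most of these genes differed widely between the mouse crypts and the spheroids. Levels divided by exon length put Anpep first in WT crypts, at 1226 ± 394 CPM per kb (SD, n = 6), which was 71.1% of the members' summed level per kb. Dpp4 followed at 110 ± 35.9, Enpep at 96.5 ± 30.4, Sis at 80.8 ± 26.8, Treh at 79.1 ± 29.9, Lct at 44.5 ± 14.1, Mgam at 42.2 ± 7.73, Alpi at 22.8 ± 6.57 and Mme at 12.6 ± 4.81 CPM per kb. The ranges of neighbours in that order overlapped, apart from Anpep over Dpp4 and Mgam over Alpi. In WT spheroids Mgam came first, at 40.8 ± 6.24 CPM per kb (SD, n = 4) and 71.0% of the summed level on average (49.2% to 89.5% by library), and the other 8 members had means of 10.6 CPM per kb or less. Alpi reached 27.2 and Sis 14.2 CPM per kb in WT library 1. The same order began with Mgam in KO spheroids, at 44.6 ± 11.1 CPM per kb (SD, n = 4) and 78.5% of the sum.

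Mgam had nearly the same mean in both mouse tables. It averaged 368 ± 67.2 CPM in WT crypts (SD, n = 6) and 355 ± 54.3 CPM in WT spheroids (SD, n = 4), with overlapping ranges. Lactase averaged 285 ± 90.3 CPM in WT crypts and 0.51 ± 0.33 CPM in WT spheroids, Dpp4 698 ± 227 in WT crypts and 0.70 ± 0.42 CPM in WT spheroids, and Anpep 5069 ± 1630 in WT crypts and 5.86 ± 3.98 CPM in WT spheroids. Sis was nearer, at 603 ± 200 CPM in WT crypts and 55.8 ± 47.3 CPM in WT spheroids. The 2 tables were scaled separately, so these pairs are given side by side and were not tested. In all, 7 of the 9 members had ranges that did not meet between the tables, and Mgam and Alpi had ranges that did.

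In KO crypts the sucrose-splitting enzyme and 1 peptidase were lower and no member was called higher. Sis fell by 1.09 ± 0.26 on the log2 scale (SE; edgeR adjusted p = 0.00983) and Dpp4 by 1.38 ± 0.45 (adjusted p = 0.0427 in edgeR). The 2 of 9 members called lower stand beside 10.5% of the 16413 genes tested, the 0 called higher beside 14%, and both directions together were 24.5%. No member's groups were free of overlap, where 5.71% of all genes were lower without overlap. The median log2 fold change of the 9 was -1.23, against 0.05 over all genes. Without KO libraries 4, 5 and 6, an alternative chosen after seeing the data, 0 of 9 members and 924 genes were called, and the members' median was -0.48.

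**Figure D1:**
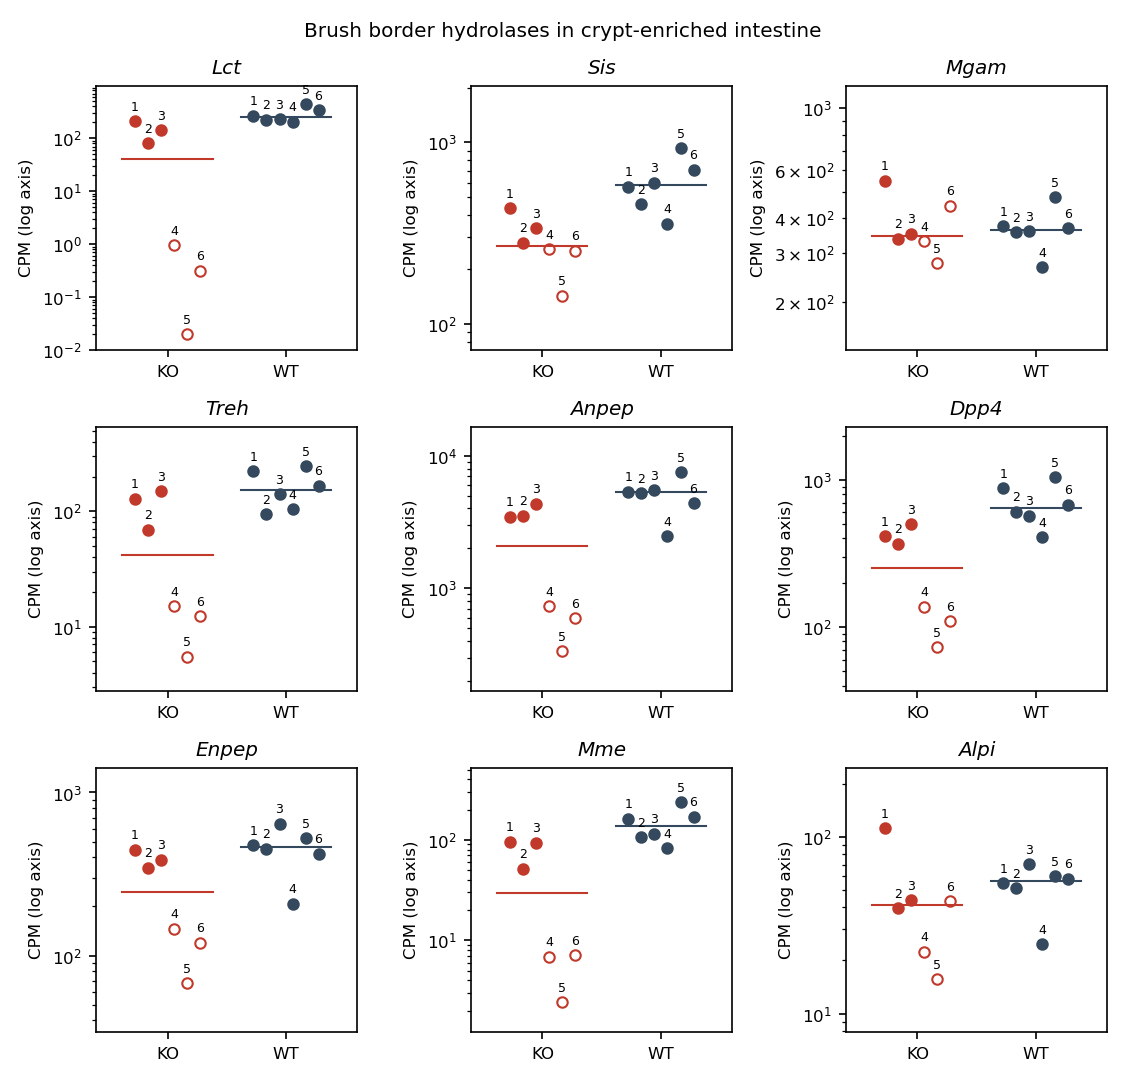
CPM of each hydrolase on a log axis in the 6 KO (left) and 6 WT (right) crypt libraries, each point a library labelled with its number, lines the group medians, and open points KO libraries 4, 5 and 6. Lct spans from 0.020 to 212 CPM within KO, whereas Mgam lies at 276 to 548 CPM in KO and 266 to 478 CPM in WT.

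Lactase, the enzyme of milk sugar, showed the widest spread. Lct (chromosome 1, 128284756 to 128328318, mm10, minus strand) had 212, 79.8 and 144 CPM in KO libraries 1, 2 and 3 and 0.948, 0.020 and 0.315 CPM in KO libraries 4, 5 and 6, against a lowest value of 206, a median of 248 and a highest of 442 CPM in WT. The last 3 KO values rest on 73, 1 and 29 reads, where WT libraries had 11101 to 25889. KO library 1 lay inside the WT range and the other 5 below it. The log2 fold change was -1.97 ± 1.34 (SE) and edgeR did not call it (adjusted p = 0.303), while voom with sample weights did (-7.89 ± 1.30, adjusted p = 0.000553); without KO libraries 4, 5 and 6 it was -0.97 ± 0.31, with an edgeR adjusted p of 0.0818.

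Sis (chromosome 3, 72888557 to 72967863, minus strand), which cleaves sucrose and the branch points of starch, had 433, 280 and 336 CPM in KO libraries 1, 2 and 3 and 257, 143 and 253 CPM in KO libraries 4, 5 and 6, against 357 to 929 CPM with a median of 585 in WT. Of the KO libraries, only library 1 reached the WT range. Its mean was 284 ± 96.2 CPM in KO crypts against 603 ± 200 CPM in WT crypts (SD, n = 6 each), and the fall was called with any single library left out, with adjusted p between 0.000725 and 0.0892 over all 18 alternatives, the lowest from DESeq2. The one alternative without the call was the fit without KO libraries 4, 5 and 6 (log2 fold change -0.78 ± 0.26, adjusted p = 0.0892 in edgeR).

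Mgam (chromosome 6, 40628831 to 40769123, plus strand), the maltase-glucoamylase that frees glucose from starch fragments, is a close relative of Sis in structure and was not called. It had 548, 338, 352, 330, 276 and 444 CPM in KO libraries 1 to 6, against 266 to 478 CPM with a median of 364 in WT. KO library 1 lay above the WT range and the other 5 inside it. The means were 381 ± 98.1 CPM in KO crypts against 368 ± 67.2 CPM in WT crypts (SD, n = 6 each), with a log2 fold change of 0.05 ± 0.18 (SE; edgeR adjusted p = 0.848), and 0.17 ± 0.20 without KO libraries 4, 5 and 6. The level of Mgam relative to Sis was 1.28, 1.93 and 1.75 in KO libraries 4, 5 and 6 and 1.05 to 1.27 in the other KO libraries, against 0.51 to 0.78 in WT.

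Trehalase, a disaccharidase held by a lipid anchor, was strongly split within KO. Treh (chromosome 9, 44673233 to 44686305, plus strand) had 128, 69.3 and 149 CPM in KO libraries 1, 2 and 3 and 15.0, 5.48 and 12.3 CPM in KO libraries 4, 5 and 6, against 94.7 to 245 CPM with a median of 153 in WT. KO libraries 1 and 3 were inside the WT range and the other 4 below it. Its log2 fold change was -1.36 ± 0.71 (SE), not called (edgeR adjusted p = 0.182; voom with sample weights called it at -2.95 ± 0.58, adjusted p = 0.00156), and -0.48 ± 0.32 without KO libraries 4, 5 and 6.

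Among the peptidases, Anpep (chromosome 7, 79821803 to 79861059, minus strand), the aminopeptidase that removes neutral residues, had 3456, 3524 and 4350 CPM in KO libraries 1, 2 and 3 and 737, 334 and 597 CPM in KO libraries 4, 5 and 6, against 2476 to 7477 CPM with a median of 5284 in WT. The first 3 KO libraries were within the WT range and the last 3 below it, for a log2 fold change of -1.23 ± 0.59 (SE; edgeR adjusted p = 0.144), and -0.42 ± 0.26 without KO libraries 4, 5 and 6. With all libraries it was called by DESeq2 (-1.25 ± 0.50, adjusted p = 0.0487) and by voom with sample weights (-2.41 ± 0.52, adjusted p = 0.00284).

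Dpp4 (chromosome 2, 62330073 to 62412231, minus strand), which cuts after a proline or alanine and so also inactivates incretin hormones, had 416, 368 and 501 CPM in KO libraries 1, 2 and 3 and 138, 73.1 and 109 CPM in KO libraries 4, 5 and 6, against 409 to 1039 CPM with a median of 643 in WT. KO libraries 1 and 3 were inside the WT range, near its lower end, and the other 4 were below it. The means were 268 ± 183 CPM in KO crypts against 698 ± 227 CPM in WT crypts (SD, n = 6 each). The call was lost in 8 of the 12 fits that left out 1 library and without a filter on low counts (adjusted p = 0.108 in edgeR), and without KO libraries 4, 5 and 6 the log2 fold change was -0.70 ± 0.25 (adjusted p = 0.1099 in edgeR).

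Enpep (chromosome 3, 129269175 to 129332720, minus strand), the aminopeptidase for acidic residues, had 445, 347 and 388 CPM in KO libraries 1, 2 and 3 and 146, 67.5 and 120 CPM in KO libraries 4, 5 and 6, against 208 to 642 CPM with a median of 465 in WT. Its log2 fold change was -0.85 ± 0.43 (SE; edgeR adjusted p = 0.167), and -0.20 ± 0.26 without KO libraries 4, 5 and 6. Mme (chromosome 3, 63241537 to 63386030, plus strand), the endopeptidase neprilysin, had 95.6, 51.9 and 93.3 CPM in KO libraries 1, 2 and 3 and 6.87, 2.43 and 7.09 CPM in KO libraries 4, 5 and 6, against 82.3 to 236 CPM with a median of 139 in WT. In both genes KO libraries 4, 5 and 6 were below every WT library and KO libraries 1 and 3 inside the WT range; KO library 2 was inside it for Enpep and below it for Mme. The log2 fold change of Mme was -1.76 ± 0.79 (SE; edgeR adjusted p = 0.122), and -0.85 ± 0.31 without KO libraries 4, 5 and 6. Voom with sample weights called both, Enpep at -1.52 ± 0.39 (adjusted p = 0.0079) and Mme at -3.78 ± 0.64 (adjusted p = 0.000651).

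The phosphatase Alpi (chromosome 1, 87098002 to 87101606, minus strand) moved least after Mgam. It had 112, 39.6 and 43.9 CPM in KO libraries 1, 2 and 3 and 22.4, 15.6 and 43.5 CPM in KO libraries 4, 5 and 6, against 24.8 to 70.4 CPM with a median of 56.5 in WT. KO library 1 was above all WT libraries, KO libraries 4 and 5 were below them, and the others were inside. Its log2 fold change was -0.20 ± 0.41 (SE; edgeR adjusted p = 0.747), and 0.30 ± 0.35 without KO libraries 4, 5 and 6. Alpi has close paralogs in the same cluster, among them Akp3 and Alppl2, and the sources used here do not give how reads shared between them were counted. The same holds for reads that Dpp4, Treh and Enpep share with overlapping genes on the other strand, Anpep with one on its own strand, and human MGAM with MGAM2.

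Counted per library, 8, 8 and 7 of the 9 members were below the WT range in KO libraries 4, 5 and 6, and 0, 5 and 2 in KO libraries 1, 2 and 3. The share of all genes below the WT range was not computed by library. These counts therefore do not show whether the members differ from other genes there. The summed level of the 9 was 1653, 917 and 1587 CPM in KO libraries 4, 5 and 6 and 5845, 5097 and 6357 CPM in KO libraries 1, 2 and 3, against 4135 to 11428 CPM in WT. Composition differed too. Anpep took 55.5%, 48.3% and 48.6% of the members' summed level per kb in KO libraries 4, 5 and 6 and 65.9% to 75.5% in KO libraries 1, 2 and 3, against 67.5% to 75.6% in WT. Mgam took 11.8%, 19.0% and 17.2% in KO libraries 4, 5 and 6 and 4.96%, 3.44% and 2.84% in KO libraries 1, 2 and 3, against 2.198% to 3.45% in WT.

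Summed markers of several cell types were also below the WT range in KO libraries 4, 5 and 6. Such sums follow the most abundant genes, and single markers differed. Counts of genes called on these and the later crypt lists stand beside 10.5% lower and 14% higher over all genes tested. Krt20, an enterocyte marker, had 2060, 1318 and 2356 CPM in those libraries, against 1601 to 4985 CPM in WT. Median log2 fold changes over all libraries were -0.47 for enterocyte, -0.64 for stem cell and -0.98 for Paneth cell markers. They were -0.67 for enteroendocrine and -0.51 for goblet cell markers. The 7 enterocyte markers summed to 8280, 3817 and 7423 CPM there and to 14360 to 30229 CPM in KO libraries 1, 2 and 3, against 13343 to 35647 CPM in WT; 0 of 7 were called. The 5 stem cell markers summed to 37.5, 33.5 and 23.3 CPM in those libraries and to 499 to 972 CPM in the other KO libraries, against 864 to 2076 CPM in WT; 0 of 5 were called, and Olfm4, the most abundant, had 22.4, 16.99 and 8.37 CPM in KO libraries 4, 5 and 6 against 817 to 1998 CPM in WT. The 5 Paneth cell markers summed to 4042, 6075 and 3930 CPM in KO libraries 4, 5 and 6 and to 13076 to 20091 CPM in the other KO libraries, against 13076 to 34868 CPM in WT, with 0 of 5 called. The 4 enteroendocrine markers summed to 181, 165 and 117 CPM there and to 269 to 394 CPM in the other KO libraries, against 228 to 480 CPM in WT, with 0 of 4 called. The sum of the 5 goblet cell markers was below the WT range in all 6 KO libraries. It was 4053, 4727 and 3719 CPM in KO libraries 4, 5 and 6 and 5233, 4774 and 4422 CPM in KO libraries 1, 2 and 3. In WT it was 5333 to 7566 CPM, and 0 of 5 were called.

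The 8 immune markers summed to 315, 200 and 742 CPM in KO libraries 4, 5 and 6 and to 1074 to 1882 CPM in the other KO libraries, against 1612 to 5091 CPM in WT, with 2 of 8 called lower and 0 higher. Cd74 made up most of that sum, with 247, 139 and 687 CPM in KO libraries 4, 5 and 6, and the median log2 fold change of the 8 was 0.21. Csf1r, a receptor of macrophages, had 2.01, 5.96 and 2.63 CPM in those libraries, against 0.328 to 1.97 CPM in WT, and was not called (edgeR adjusted p = 0.0986). The genes called were Itgam, an integrin of myeloid cells, at 14.5 ± 5.74 CPM in KO against 31.3 ± 8.96 CPM in WT, and Cd74, the invariant chain of antigen presentation, at 910 ± 679 CPM in KO against 3283 ± 1364 CPM in WT. The 7 stromal markers summed to 7.70, 43.6 and 14.7 CPM in KO libraries 4, 5 and 6 and to 1.71 to 5.32 CPM in the other KO libraries, against 2.31 to 35.9 CPM in WT, with 0 of 6 tested called. Of the 4 tuft cell markers, 2 were lower (Pou2f3 and Dclk1). The sum of all 4 was 32.6, 50.6 and 38.4 CPM in KO libraries 4, 5 and 6. It was 16.5 to 25.8 CPM in the other KO libraries and 25.0 to 47.4 CPM in WT. Most of the sum in KO libraries 4, 5 and 6 came from the tuft marker Avil. There Dclk1 (0.662, 0.769 and 0.239 CPM), Pou2f3 (0.299, 0.237 and 0.130 CPM) and Trpm5 (4.06, 2.47 and 4.56 CPM) were below every WT library. The 5 proliferation genes summed to 1011, 875 and 822 CPM in KO libraries 4, 5 and 6 and to 773 to 1220 CPM in the other KO libraries, against 593 to 1116 CPM in WT, with 0 of 5 called. Without KO libraries 4, 5 and 6, the tuft cell gene Dclk1 (-1.04 ± 0.27, adjusted p = 0.0386 in edgeR) was the one gene called on these marker lists. No marker on these lists was at 0 in every crypt library. Fewer cells of a type and less RNA per cell cannot be told apart in such bulk libraries, and the part of these shifts in the hydrolase values was not tested.

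**Figure D2:**
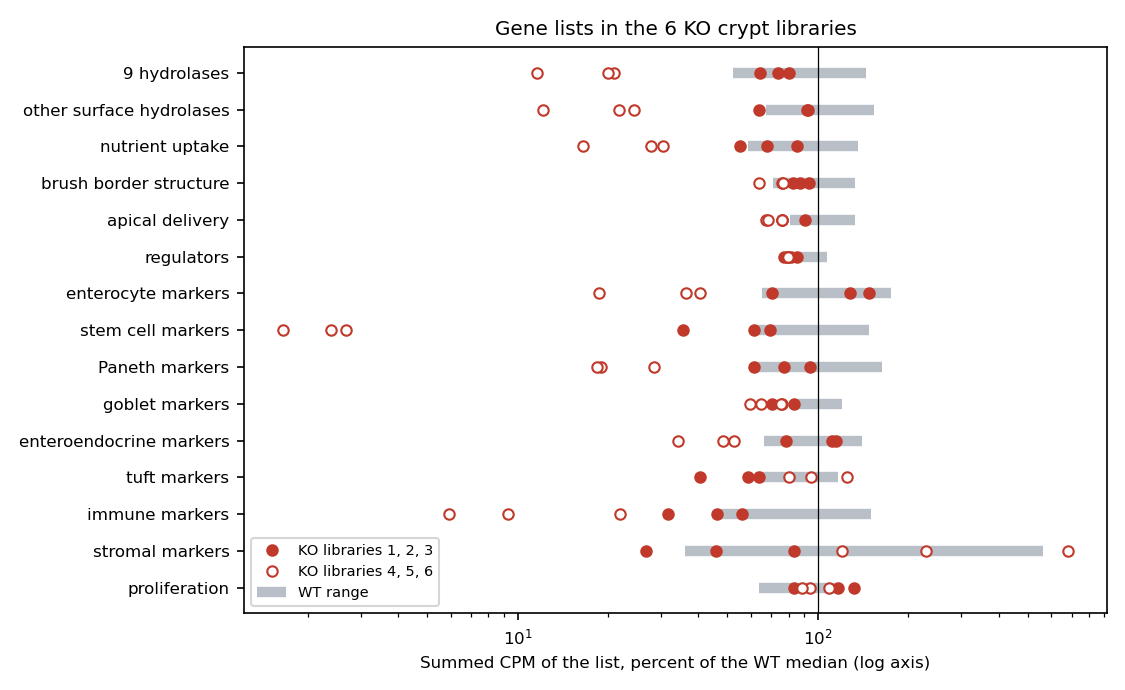
Summed CPM of each gene list in the 6 KO crypt libraries as a percentage of the WT median (log axis); filled points are KO libraries 1, 2 and 3, open points KO libraries 4, 5 and 6, and grey bars span the 6 WT libraries. The 9 hydrolases lie at 20.9%, 11.6% and 20.1% in KO libraries 4, 5 and 6 and the stem cell markers at 2.68%, 2.39% and 1.66%, while proliferation genes lie between 88.6% and 109% in those 3 libraries.

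Of 14 other surface hydrolases tested, 0 were called, with a median log2 fold change of -1.13. Of 9 carriers of sugars and amino acids, 4 were called lower and 0 higher. Slc5a1, the sodium-glucose cotransporter that takes up the glucose these enzymes free, had 859 ± 464 CPM in KO crypts against 1886 ± 497 CPM in WT crypts (log2 fold change -1.13 ± 0.34 SE, adjusted p = 0.0270 in edgeR). The fructose carrier Slc2a5 had 67.8 ± 53.6 CPM in KO crypts against 216 ± 67.2 CPM in WT crypts (adjusted p = 0.0339 in edgeR), and the proline carrier Slc6a20a 31.1 ± 21.7 CPM in KO crypts against 132 ± 46.2 CPM in WT crypts (adjusted p = 0.0121 in edgeR). Without KO libraries 4, 5 and 6 the carriers called were 2 of 9, Slc6a20a (-1.38 ± 0.28, adjusted p = 0.0136 in edgeR) and the glutamate carrier Slc1a1 (-1.45 ± 0.20, adjusted p = 0.00139 in edgeR).

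Of 13 structural genes of the microvillus, 3 were lower and 2 higher in KO crypts. Ush1c, a scaffold of the links between microvilli, had 209 ± 32.8 CPM in KO crypts against 311 ± 41.2 CPM in WT crypts, without overlap (adjusted p = 0.00901 in edgeR), and Myo1a, the motor that ties the actin core to the membrane, 911 ± 179 in KO against 1494 ± 315 CPM in WT (adjusted p = 0.00947 in edgeR). Ezr, the linker ezrin, was higher, at 428 ± 61.2 CPM in KO crypts against 268 ± 69.8 CPM in WT crypts (adjusted p = 0.0155 in edgeR). Of 6 genes of apical delivery, 2 were lower and 2 higher: Rab8a fell by 0.46 and the apical sorting lectin Lgals4 by 0.48, while Rab11a rose by 0.80 on the log2 scale. Of 12 regulators, 1 was higher and 1 was lower. The lower one was Hnf4g (259 ± 72.7 CPM in KO, 475 ± 104 CPM in WT; adjusted p = 0.00805 in edgeR). Not called were Hnf4a, at 504 ± 55.8 CPM in KO against 508 ± 85.4 CPM in WT, Cdx2, at 32.6 ± 16.1 CPM in KO against 29.8 ± 4.599 CPM in WT, and Gata4, at 24.9 ± 18.5 CPM in KO against 28.3 ± 4.04 CPM in WT. Without KO libraries 4, 5 and 6 the structure, delivery and regulator lists had 0 members called.

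The genes whose levels ran closest to each member over the 12 crypt libraries were found by the root mean square difference of centred log2 CPM among 9682 genes. For Lct they were the inositol carrier Slc5a11 (0.738), Cyp2b10 (0.930) and Gsdmc4 (1.165), where Lct's own SD was 4.545. For Sis they were Tmem236, Cobl and Tbc1d24 (0.205 to 0.223, own SD 0.75), and for Anpep the peptide carrier Slc15a1, the peptidase Naaladl1 and Ces2e (0.239 to 0.298, own SD 1.466). For Dpp4 they were Unc93a2, Gnpda1 and Smim24 (0.201 to 0.228), and for Mgam Ccdc186, Secisbp2l and Cpeb4 (0.131 to 0.134), with Mgam's own SD at 0.299. Enpep's nearest were Gm21885 (0.236), Cndp2 (0.262) and the neutral amino acid carrier Slc6a19 (0.266), with an own SD of 1.006. Alpi's were Apob (0.283), the protein of chylomicrons, Cdr2 (0.285) and Epha1 (0.309), with an own SD of 0.78. Treh's were Cyp4v3, 2010106E10Rik and Tmem86b (0.230 to 0.295, own SD 1.802), and Mme's Cyp3a25, H2-T3 and Cyp4v3 (0.282 to 0.335, own SD 2.149). KO libraries 4, 5 and 6 are among the 12.

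In spheroids no hydrolase passed the test. Of the 9 tested, 0 were called in either direction, beside 0.232% of the 15915 genes tested (0.044% lower and 0.189% higher), and none was lower without overlap, beside 4.02% of all genes. An unadjusted edgeR p below 0.05 was reached by 0 of the 9 members, and DESeq2 also called 0. The smallest adjusted p in edgeR was 0.413, for Dpp4, and the median log2 fold change was -0.36, against -0.0018 over all genes.

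**Figure D3:**
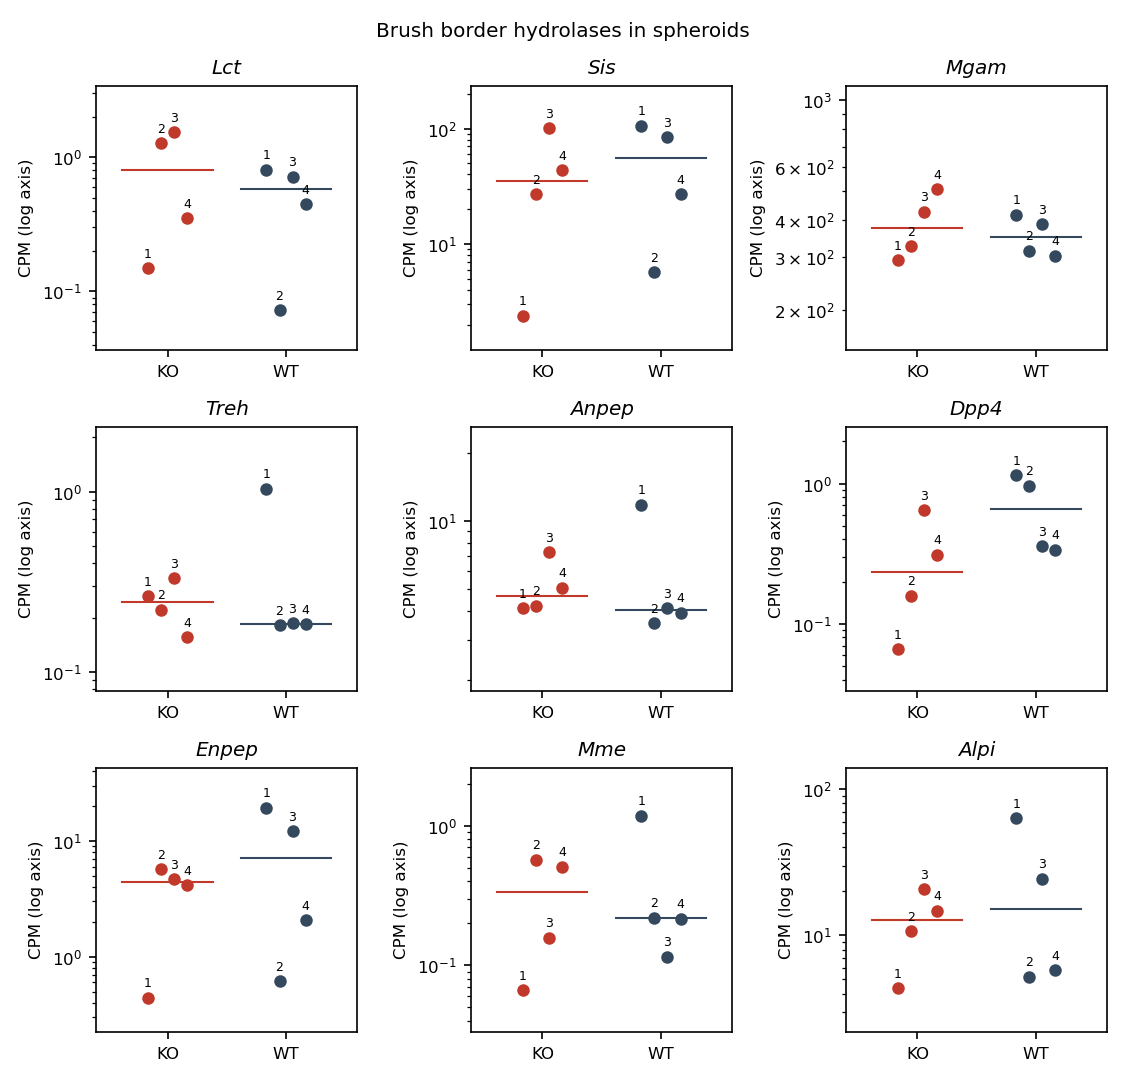
CPM of each hydrolase on a log axis in the 4 KO (left) and 4 WT (right) spheroid libraries, each point a library labelled with its number and lines the group medians. Mgam lies at 294 to 507 CPM in KO and 304 to 416 CPM in WT, while Sis spans 2.39 to 101 CPM in KO and 5.69 to 106 CPM in WT.

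Mgam had 294, 327, 426 and 507 CPM in KO libraries 1 to 4, against 416, 315, 386 and 304 CPM in WT libraries 1 to 4. The groups overlapped over most of their range, with a log2 fold change of 0.13 ± 0.17 (SE; edgeR adjusted p = 0.772). Sis had 2.39, 26.9, 101 and 43.6 CPM in KO, against 106, 5.69, 84.4 and 26.9 CPM in WT, so its highest KO library was 42.2 times the lowest, and its highest WT library 18.7 times. With that spread the log2 fold change was -0.36 ± 1.11 (SE; edgeR adjusted p = 0.905).

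Alpi had 4.33, 10.7, 20.6 and 14.8 CPM in KO, against 63.6, 5.20, 24.4 and 5.78 CPM in WT. Enpep had 0.445, 5.67, 4.70 and 4.15 CPM in KO, against 19.4, 0.618, 12.1 and 2.06 CPM in WT. Anpep had 4.14, 4.23, 7.30 and 5.08 CPM in KO, against 11.8, 3.54, 4.12 and 3.95 CPM in WT. In these 3 genes the groups overlapped and WT library 1 was the highest of all 8. Lct, Dpp4, Mme and Treh were near the limit of detection, between 0.066 and 1.54 CPM, or 4 to 98 reads, in all 8 libraries.

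The same libraries were low or high in most members. KO library 1 was among the lowest 2 of the 8 libraries in 7 of the 9 members and WT library 2 in 6, while WT library 1 was the highest in 7. The summed enterocyte markers were 290 CPM in KO library 1 and 524 to 784 CPM in the other KO libraries, against 614 CPM in WT library 1, 274 CPM in WT library 2 and 325 and 568.2 CPM in the others. Their part in the spread of the hydrolases was not tested. Of all 14 other lists in spheroids, 0 members were called. Of the regulators, Hnf4a had 656 ± 56.9 CPM in KO spheroids against 809 ± 117 CPM in WT spheroids, without overlap (SD, n = 4 each; edgeR adjusted p = 0.237), Cdx2 293 ± 22.5 in KO against 332 ± 36.1 CPM in WT, Gata4 99.0 ± 15.6 in KO against 108 ± 13.6 CPM in WT, and Hnf4g 28.7 ± 7.70 in KO against 31.7 ± 7.35 CPM in WT.

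In Caco-2 most of the hydrolases tested were lower with the Fgfr1op hairpin. Of 8 tested, 5 were lower (LCT, SI, MGAM, DPP4 and ANPEP), beside 16.2% of the 18905 genes tested, and 1 was higher (ALPI), beside 15.7%; both directions together were 31.9%. LCT, SI, DPP4 and ANPEP were lower without overlap, beside 21.5% of all genes. TREH and ENPEP were not called and MME was not tested, at 0 to 2 reads per library. The median log2 fold change of the 8 was -0.79, against -0.01 over all genes. Levels of different genes are not compared here, since no human lengths were used.

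**Figure D4:**
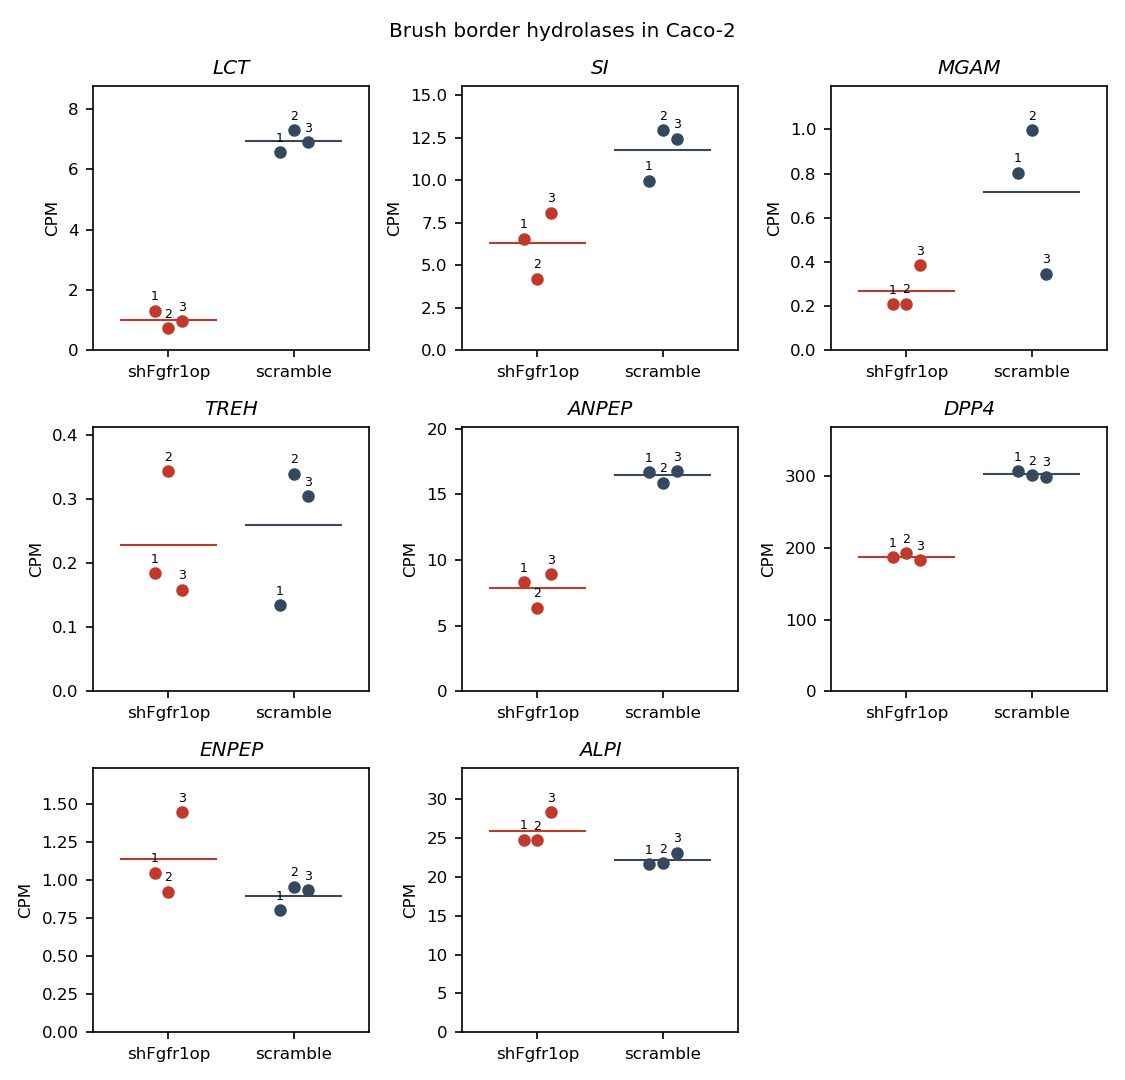
CPM (linear axes from 0) of the 8 hydrolases tested in 3 shFgfr1op (left) and 3 scramble (right) Caco-2 libraries, each point a library labelled with its number and lines the group means. LCT averages 1.01 CPM in shFgfr1op and 6.92 CPM in scramble cells, and ALPI 25.9 CPM in shFgfr1op and 22.1 CPM in scramble cells.

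Lactase changed most. LCT had 1.31, 0.739 and 0.972 CPM in shFgfr1op (50, 28 and 43 reads), against 6.57, 7.30 and 6.90 CPM in scramble (245, 366 and 318 reads). Every shFgfr1op library was below every scramble library. This gave a log2 fold change of -2.78 ± 0.18 (SE), a 6.86-fold lower level, with an edgeR adjusted p of 4.49e-17, and it was called under all 12 alternatives.

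SI had 6.56, 4.22 and 8.09 CPM in shFgfr1op, against 9.97, 12.9 and 12.4 CPM in scramble. The groups did not overlap, though shFgfr1op library 3 came within 2 CPM of scramble library 1. The log2 fold change was -0.90 ± 0.22 (SE; edgeR adjusted p = 0.0200), and the call was lost without shFgfr1op library 1, scramble library 2 or scramble library 3 (adjusted p = 0.113, 0.0563 and 0.0538 in edgeR). MGAM had 0.210, 0.211 and 0.384 CPM in shFgfr1op (8, 8 and 17 reads), against 0.804, 0.997 and 0.347 CPM in scramble (30, 50 and 16 reads). Scramble library 3 lay within the shFgfr1op values. Its log2 fold change was -1.39 ± 0.47 (SE; edgeR adjusted p = 0.0189), and the call was lost with DESeq2 (0.0565) and in 4 of the 6 fits without 1 library, where edgeR's adjusted p ran up to 0.188.

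Of the peptidases, DPP4 had 187, 193 and 184 CPM in shFgfr1op, against 308, 302 and 299 CPM in scramble, 37.9% lower. It had the smallest relative spread of the members (188 ± 4.86 in shFgfr1op against 303 ± 4.19 CPM in scramble, SD, n = 3 each) and a log2 fold change of -0.69 ± 0.03 (SE; edgeR adjusted p = 5.03e-22). ANPEP had 8.29, 6.36 and 8.93 CPM in shFgfr1op, against 16.7, 15.9 and 16.8 CPM in scramble, without overlap, for a log2 fold change of -1.06 ± 0.10 (SE; edgeR adjusted p = 5.44e-12). Both were called under all 12 alternatives. ENPEP had 1.05, 0.924 and 1.45 CPM in shFgfr1op, against 0.804, 0.957 and 0.933 CPM in scramble, and the groups overlapped (log2 fold change 0.35 ± 0.30 SE, adjusted p = 0.430 in edgeR). TREH ranged over 0.158 to 0.343 CPM in shFgfr1op and 0.134 to 0.339 CPM in scramble, or 5 to 17 reads (log2 fold change -0.22 ± 0.59 SE).

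ALPI went the other way. It had 24.7, 24.7 and 28.3 CPM in shFgfr1op, against 21.6, 21.8 and 23.1 CPM in scramble, and the groups did not overlap. The rise was 0.23 ± 0.07 on the log2 scale (SE), or 17.2%, with an edgeR adjusted p of 0.00672. Without shFgfr1op library 3 it was 0.16 ± 0.07 and was not called (adjusted p = 0.0830 in edgeR).

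**Figure D5:**
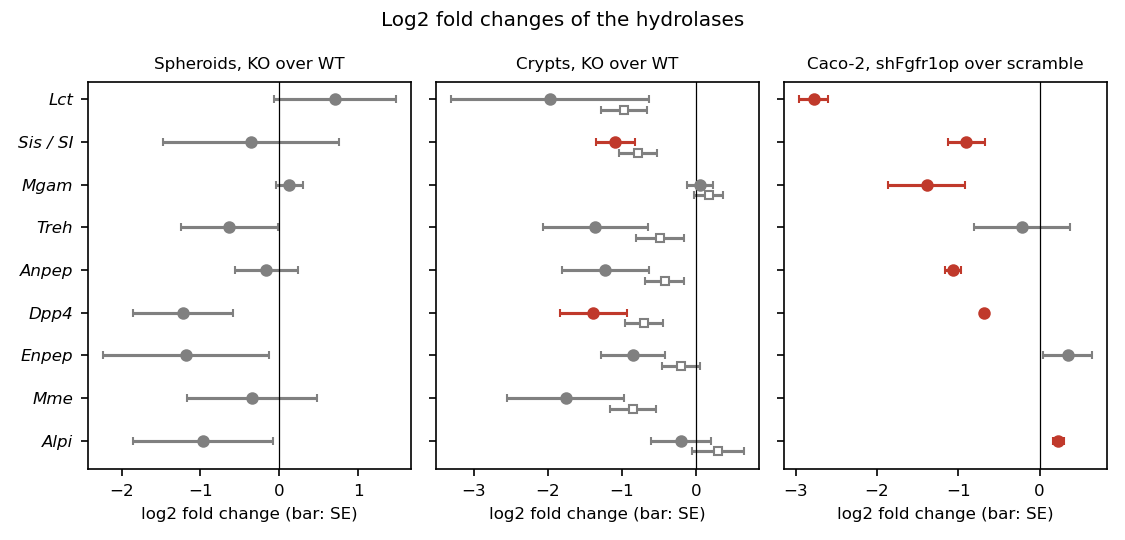
Log2 fold change ± SE of each hydrolase in spheroids, crypts and Caco-2, red where called at an edgeR adjusted p below 0.05 and grey otherwise; open squares are the crypt fit without KO libraries 4, 5 and 6. Sis / SI and Dpp4 are red and below 0 in crypts and in Caco-2, Lct is at -1.97 in crypts with an SE of 1.34 and at -2.78 in Caco-2 with an SE of 0.18, and Mgam is at 0.05 in crypts and -1.39 in Caco-2.

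Set side by side, Sis was -0.36 ± 1.11 in spheroids, -1.09 ± 0.26 in crypts and -0.90 ± 0.22 in Caco-2 (log2 fold change ± SE), and Dpp4 was -1.22 ± 0.64, -1.38 ± 0.45 and -0.69 ± 0.03. Lct was 0.71 ± 0.77, -1.97 ± 1.34 and -2.78 ± 0.18, Anpep -0.17 ± 0.40, -1.23 ± 0.59 and -1.06 ± 0.10, Mgam 0.13 ± 0.17, 0.05 ± 0.18 and -1.39 ± 0.47, and Alpi -0.97 ± 0.88, -0.20 ± 0.41 and 0.23 ± 0.07. Differences between the 3 systems were not tested.

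Of 10 other surface hydrolases tested, 5 were lower and 0 higher in Caco-2; GGT1, which splits glutathione, had 28.4 ± 2.37 CPM in shFgfr1op cells against 47.9 ± 2.42 CPM in scramble cells (SD, n = 3 each), XPNPEP2, an aminopeptidase for peptides with proline, 2.41 ± 0.46 in shFgfr1op against 7.36 ± 0.54 CPM in scramble, and the dipeptidase DPEP1 6.72 ± 1.33 in shFgfr1op against 13.4 ± 0.98 CPM in scramble, with edgeR adjusted p of 2.85e-14, 3.50e-12 and 1.34e-09. Of 9 carriers, 7 were lower and 0 higher, led by SLC3A1, SLC2A5 and SLC2A2; the fructose carrier SLC2A5 had 1.25 ± 0.11 CPM in shFgfr1op cells against 5.86 ± 0.54 CPM in scramble cells (adjusted p = 2.43e-14 in edgeR). Of 5 enterocyte markers tested, 4 were lower and 0 higher, among them APOA1 at 1007 ± 68.2 in shFgfr1op against 1823 ± 19.8 CPM in scramble. Of 13 structural genes 6 were lower (MYO1A at 5.04 ± 0.47 in shFgfr1op against 11.7 ± 0.99 CPM in scramble) and 3 higher (MYO1D at 340 ± 9.04 in shFgfr1op against 251 ± 2.81 CPM in scramble), and of 6 delivery genes 1 was lower (MYO5B) and 3 were higher, STX3 and RAB8A among them. The 13 structural genes summed to 1467 to 1516 CPM in shFgfr1op and 1419 to 1454 CPM in scramble. Counts of genes called on these and the later Caco-2 lists stand beside 16.2% lower and 15.7% higher over all genes tested.

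Of 11 regulators tested, 8 were lower and 0 higher. CDX2 had 99.5 ± 6.88 CPM in shFgfr1op cells against 187 ± 11.4 CPM in scramble cells (SD, n = 3 each; log2 fold change -0.91 ± 0.05 SE, adjusted p = 2.88e-13 in edgeR). HNF4A had 577 ± 5.77 in shFgfr1op against 713 ± 5.66 CPM in scramble (-0.31 ± 0.03, adjusted p = 2.81e-12 in edgeR) and GATA4 12.9 ± 0.92 in shFgfr1op against 18.2 ± 1.44 CPM in scramble (-0.49 ± 0.08, adjusted p = 5.63e-06 in edgeR). HNF4G was not called, at 0.721 ± 0.04 in shFgfr1op against 0.966 ± 0.10 CPM in scramble. ELF3 (-0.72) and PRDM1 (-1.24) were the regulators of smallest p.

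Of the stem cell markers in Caco-2, 4 of 4 tested were higher. LGR5 had 40.7 ± 1.39 CPM in shFgfr1op cells against 14.5 ± 1.03 CPM in scramble cells (SD, n = 3 each; adjusted p = 5.40e-23 in edgeR), and OLFM4 had at most 3 reads in every library. The summed stem cell markers were 129 to 135 CPM in shFgfr1op and 71.3 to 73.9 CPM in scramble, and the summed enterocyte markers 1987 to 2302 CPM in shFgfr1op and 3087 to 3423 CPM in scramble. Of 5 proliferation genes, 2 were higher (PCNA and MCM5) and 0 lower. Of the other marker lists, 1 of 3 Paneth genes (LYZ), 1 of 1 goblet gene (TFF3), 1 of 4 immune genes (CSF1R) and 2 of 4 stromal genes (PECAM1 and PDGFRA) were lower, 1 of 4 stromal genes (COL3A1) was higher, and 0 of 1 enteroendocrine and 0 of 1 tuft genes were called. The part of the stem and enterocyte shifts in the hydrolase values was not tested.

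The genes closest to the Caco-2 members over the 6 libraries, among 11714 genes, were MFGE8, STMN3 and ELF3 for DPP4 (0.015 to 0.022 in root mean square difference of centred log2 CPM, own SD 0.378), ABCA1, C1QTNF6 and SFRP5 for ANPEP (0.069 to 0.082, own SD 0.611), CDH4, SERPIND1 and APOA4 for SI (0.151 to 0.196, own SD 0.61), and MFSD9, KRR1 and WDSUB1 for ALPI (0.019 to 0.036, own SD 0.146). The 6 libraries are shFgfr1op and scramble cells, so genes with a similar change between these groups come out close whatever else they share. LCT, MGAM, TREH, ENPEP and MME were below the level set for this search.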

How the data were processed

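Spheroids, crypts and Caco-2 each have a table, deposited by the authors, of raw read counts by gene. Per the submitters' processing notes STAR, DESeq2 and the mouse build mm10 were used. The human build, versions, and whether strand was used in counting are not given in the sources used here. Repeated identifiers (276, 276 and 116) were removed; coordinates and exon lengths come from GENCODE M21, which holds 40254 of the mouse identifiers. Columns were matched to samples by title (spheroids), genotype (crypts) or hairpin (Caco-2).

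Each table was fitted alone with edgeR 4.0.16 in R 4.3.3 (filterByExpr, TMM, robust quasi-likelihood F test, Benjamini-Hochberg adjustment over all genes tested, threshold 0.05), and the fit was tested on simulated data. The SE is the log2 fold change divided by the square root of F. CPM use TMM-scaled totals; log2 CPM use a prior count of 2. Each library counted once. Replicates differed by more than sampling noise (chi-square per degree of freedom at least 3.98). This excess, 3.98 to 9.58 in Caco-2, does not show that the Caco-2 libraries are separate cultures. Alternatives were RLE factors, no filter, a filter of 1 CPM, DESeq2 1.42.0, limma 3.58.1 voom with sample weights, each library left out, a replicate block, and crypts without KO libraries 4, 5 and 6.

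Members and gene lists were chosen with earlier results of these data known. The text names all members, up to 3 genes of smallest p per other list, and 4 regulators (Hnf4a, Hnf4g, Cdx2 and Gata4); Slc1a1 in crypts was named after its values were seen. Promoters come from RefSeq (GRCm38.p6), where all 9 members matched. Some genes that the naming rule covers are not reported here.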

Additional observations from a re-analysis of the deposited data

Results flagged for a closer look

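In 5 of 36 combinations of a group and a member, 1 library lay far from the others by Dixon's ratio, the gap to the nearest library over the group's range, computed from log2 CPM (prior count 2), not from the CPM printed beside it; chance gives about 1 in 20. In WT spheroids, library 1 was far above the others in Anpep (ratio 0.875; 11.8 CPM, against 3.54 to 4.12 in the other WT libraries) and in Treh (0.987; 1.04 CPM). In KO spheroids, library 1 was far below the others in Enpep (0.875; 0.445 CPM). In WT crypts, library 4 was far below the others in Alpi (ratio 0.700, 24.8 CPM). Enpep in that library (ratio 0.6251, 208 CPM) only just passed the limit. The limits were 0.829 for groups of 4 libraries and 0.625 for groups of 6. The 36 combinations share libraries and are not independent. WT spheroid library 1 also stood apart on the first principal component of the 1000 most variable genes. It lay at 39.0, where the other 7 libraries lay between -14.1 and 7.04. The cause was not tested.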

How the results depend on the processing

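In crypts the count of hydrolases called was 2, and it was 1 without a filter on low counts, 7 with voom and sample weights, 1 to 2 with 1 library left out, and 0 without KO libraries 4, 5 and 6, an alternative chosen after seeing the data. With those 3 libraries removed 924 genes were called, and with voom 7179, in place of 4014. With voom, Lct was at -7.89 ± 1.30, Mme at -3.78, Treh at -2.95, Anpep at -2.41 and Enpep at -1.52. In spheroids the count of genes called was 37, and it was 154 without the filter, 577 with DESeq2, 71 with the replicate block and 3 to 160 with 1 library left out, while 0 hydrolases were called under each of these. In Caco-2 the replicate block called 5904 genes and 6 hydrolases, as many hydrolases as without it. Same-numbered libraries showed no strong shared deviation (correlations -0.03 to 0.10 in spheroids and 0.003 to 0.044 in Caco-2). Low correlations cannot show whether libraries of the same number were prepared as pairs. In crypts (-0.07 to 0.11) the block was not run. The cause of these shifts was not tested. Low counts limit Lct, Dpp4, Mme and Treh in spheroids and MGAM, TREH and MME in Caco-2.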
